A study of Mus musculus with 36 samples.

Results

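The transcripts of 10 mouse genes that mark the primed state of pluripotency or the first embryonic lineages were followed in cells with and without the zinc finger protein ZFP266, to ask whether Zfp266 knockout (KO) iPSC or ESC clones drift towards these states. The genes were taken by symbol: Fgf5, Otx2, Pou3f1 and Gbx2 for the epiblast, Sox17, Gata4, Gata6 and Foxa2 for endoderm, and Eomes and Mixl1 for the primitive streak. Of these, Gbx2 is also a factor of ESCs and not a marker of the primed state alone. All 10 had a row among the 21442 genes counted. The study sequenced mRNA from 36 libraries, 3 for each of 2 genotypes at 6 stages. Mouse embryonic fibroblasts (MEFs) were the starting cells, days 3, 5 and 7 of reprogramming (D3, D5 and D7) the steps in between, and induced pluripotent stem cells (iPSCs) and embryonic stem cells (ESCs) the pluripotent cells, which makes 12 groups.

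The MEFs were passage 2 cells from E12.5 embryos, and the modified cells among them were of strain 129. These embryos were chimeras made by morula aggregation with the modified ESCs, and host embryos came from B6CBAF1 females. The modified MEFs carried Cas9, a Nanog-GFP reporter with a puromycin resistance gene, and a cassette for Oct4, Sox2, Klf4 and Myc that doxycycline turns on. The modified wild-type (WT) MEFs carried all of these too. No sort is described for the MEF RNA libraries, so host cells without these elements may be among them. MEF libraries were made 96 h after infection with a lentivirus for a non-targeting guide (WT) or a Zfp266 guide (KO), so a KO library from MEFs or from D3, D5 and D7 is a population of edited cells and not a clone. For D3, D5 and D7 the infected cells were grown among unmodified 129 MEFs with 300 ng/ml doxycycline and 10 μg/ml vitamin C, and cells that expressed the cassette (mOrange+) were sorted. The iPSC libraries were WT and KO clones grown from single Nanog-GFP+ cells taken at day 15, then kept without doxycycline in 1 μg/ml puromycin, a selection for cells in which the Nanog reporter is active. KO ESC clones were derived from 1 parental line (Clone J). The WT ESC libraries are taken here as 3 samples of that line and the KO ESC libraries as 3 clones. Both are inferences, since the titles give only the genotype and the replicate number. In the fit of all libraries, p-values rest on a spread estimated over all 12 groups together. The WT ESC part of it would then be a spread between samples of the same line. Nothing in the labels says that the replicates of MEFs and reprogramming cells came from separate embryos.

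Mouse pluripotent cells exist in a naive state, which resembles the epiblast before implantation, and in a primed state, which resembles the epiblast just before gastrulation. Cells that leave the naive state switch on Fgf5, Otx2 and Pou3f1, while GATA6, GATA4 and SOX17 drive extraembryonic endoderm, and EOMES, MIXL1, SOX17 and FOXA2 act as the primitive streak gives rise to mesoderm and definitive endoderm. ESCs in serum and LIF, the medium used here, are a mixed population in which some cells express such genes. In bulk RNA, a change in the share of cells that express a gene and a change in its RNA per cell cannot be told apart.

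Libraries held 19224103 to 39610939 assigned reads. Levels are given as normalized counts, the reads of a gene divided by the library's size factor, and 3 reads, the most that a count of 0 allows at 95% confidence, equal 2.31 to 5.22 normalized counts depending on the library. Such limits cover counting error only. Markers were as the labelled cell types require: the summed level of 13 fibroblast genes was 459532 to 474922 in WT MEFs and 582 to 942 in iPSCs, and that of 5 pluripotency genes (Nanog, Esrrb, Zfp42, Tdgf1 and Dppa3) was 19.7 to 30.8 in MEFs of both genotypes and 61253 to 72318 in iPSCs. The Zfp266 transcript itself was lower in KO iPSCs (log2FC -0.39, DESeq2 FDR 9.95e-06) and higher in KO cells at D3 (0.32, FDR 0.00883), with no call at the other stages (0.12, FDR 0.717, in MEFs), and indels made by a guide need not change the amount of a transcript. MEF KO replicate 3 stood apart from replicates 1 and 2, from which it differed by 99.2 and 103 times the counting variance, where those differed from each other by 4.38 times. Its fibroblast sum was 636957, against 428366 and 431321. A gene is called changed at FDR < 0.05 over all genes tested (DESeq2, all 36 libraries in 1 fit), and log2FC values are KO minus WT unless the groups are named. Where the libraries of compared groups do not overlap, the share of all genes that separate so is not given at any stage. Such a separation is a description only. Library preparation batches exist in the study but are not in the labels, so no value within a batch can be given.

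WT cells set the range within which the KO values are read. Between MEFs and D7, 1 of the 10 genes rose (Otx2) and 4 fell (Fgf5, Pou3f1, Gbx2 and Gata6), where 36.2% of all genes tested rose, 34.7% fell and 70.9% changed. From D7 to iPSCs 6 rose (Fgf5, Otx2, Pou3f1, Gbx2, Eomes and Mixl1) and 3 fell (Gata4, Gata6 and Foxa2), against 35.8% and 37.7% of all genes, 73.5% in all. The median log2FC of the 10 genes was -0.96 in the first of these comparisons and 2.34 in the second, against 0.05 and 0.01 over all genes. Between ESCs and MEFs 5 were higher in ESCs (Fgf5, Otx2, Pou3f1, Gbx2 and Eomes) and 3 lower (Gata4, Gata6 and Foxa2), against 40.0% and 39.4% of all genes, 79.3% in all. The call for Mixl1 from D7 to iPSCs (log2FC 2.73, FDR 0.0177) was lost without D7 WT replicate 1, D7 WT replicate 2 or iPSC WT replicate 1 and with the replicate number as a block within each stage, which left 8 calls. The call for Fgf5 between ESCs and MEFs (1.01, FDR 0.0423) was lost without MEF WT replicates 1, 2 or 3 or ESC WT replicates 2 or 3, and with the replicate number as a block, within each stage or over all libraries.

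Otx2, a homeobox factor of the primed epiblast and the anterior neural plate, had no read in any of the 6 MEF libraries. In WT cells it was at 0 in all 3 D3 libraries and at most 2.06 at D5, stood at 51.7, 84.6 and 20.6 normalized counts at D7, and reached 969, 839.6 and 1339 in iPSC clones and 1106, 1067 and 1036 in ESCs. The WT D7 level was at least 38.0-fold higher than in WT MEFs, and the ESC level at least 776-fold, with 3 reads over the MEF group as the limit. Every WT D7 library lay above every earlier one and below every pluripotent one.

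Gbx2, a homeobox factor of both ESCs and the midbrain-hindbrain border, was instead present in MEF libraries. It had 73.0, 77.2 and 71.1 normalized counts in WT MEFs, at most 6.80 at D3 and D5, and 0, 10.1 and 11.3 at D7. In WT iPSC clones it had 593, 2231 and 658, and in WT ESCs 722, 726 and 892. Gbx2 was thus lowest during reprogramming, with a log2FC of -3.37 (SE 0.72, FDR 6.55e-06) from MEFs to D7 and 7.35 (SE 0.71, FDR 3.69e-24) from D7 to iPSCs. Cells of D3 to D7 were sorted for the cassette, and no sort is described for MEF libraries. A change in the cells sampled and a change in expression thus cannot be told apart between them. Pou3f1 (Oct6), a POU factor of the late epiblast, and Fgf5, a growth factor that is the standard marker of primed cells, were also lowest during reprogramming. Pou3f1 had 15.9 to 19.7 in WT MEFs, 2.01 to 4.06 at D7, 112 to 375 in iPSCs and 193 to 229 in ESCs, and Fgf5 had 13.6 to 18.0, 2.06 to 4.03, 32.5 to 43.9 and 27.1 to 37.3 in the same groups.

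The endoderm factors divided into a pair that fibroblasts express and a pair that was scarce at most stages. Gata6 had 1169, 1163 and 1165 normalized counts in WT MEFs, fell to 141, 168 and 153 by D7, and had 13.1, 29.4 and 21.7 in WT ESCs. Gata4 had 466 to 507 in WT MEFs and 360.1 to 638 at D7 (log2FC -0.01, FDR 0.984), and 32.1 to 36.5 in ESCs. Both are also mesenchymal genes, so a fall of their transcripts from MEFs to iPSCs is a fall from the fibroblast level. Foxa2, a pioneer factor of definitive endoderm, had 38.1 to 57.4 at D7 and 1.73 to 7.42 in iPSCs, a log2FC of -3.35 (SE 0.67, FDR 1.37e-06). Sox17, which endoderm and haemogenic cells express, never exceeded 5.21 in a WT library. Eomes, a T-box factor of streak and trophoblast, had 21.6 to 32.2 at D7 and 53.8 to 96.7 in iPSCs, and Mixl1, a homeobox gene of the streak, stayed at or below 19.0 in every library of the series.

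Divided by exon length, the mean level in WT ESCs was highest for Gbx2 (358 normalized counts per kb), followed by Otx2 (253) and Pou3f1 (55.7). In WT MEFs Gata6 (179 per kb) and Gata4 (125) led, and the 3 genes that led in ESCs stood at 33.9, 0 and 4.59. None of the 10 genes was called between WT iPSCs and WT ESCs, where 3.20% of all genes were called. Only 4 of the 10 had an FDR there, 1 had an unadjusted p under 0.05 (Gata4, log2FC 0.83, FDR 0.183), and edgeR called none.

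**Figure D1:**
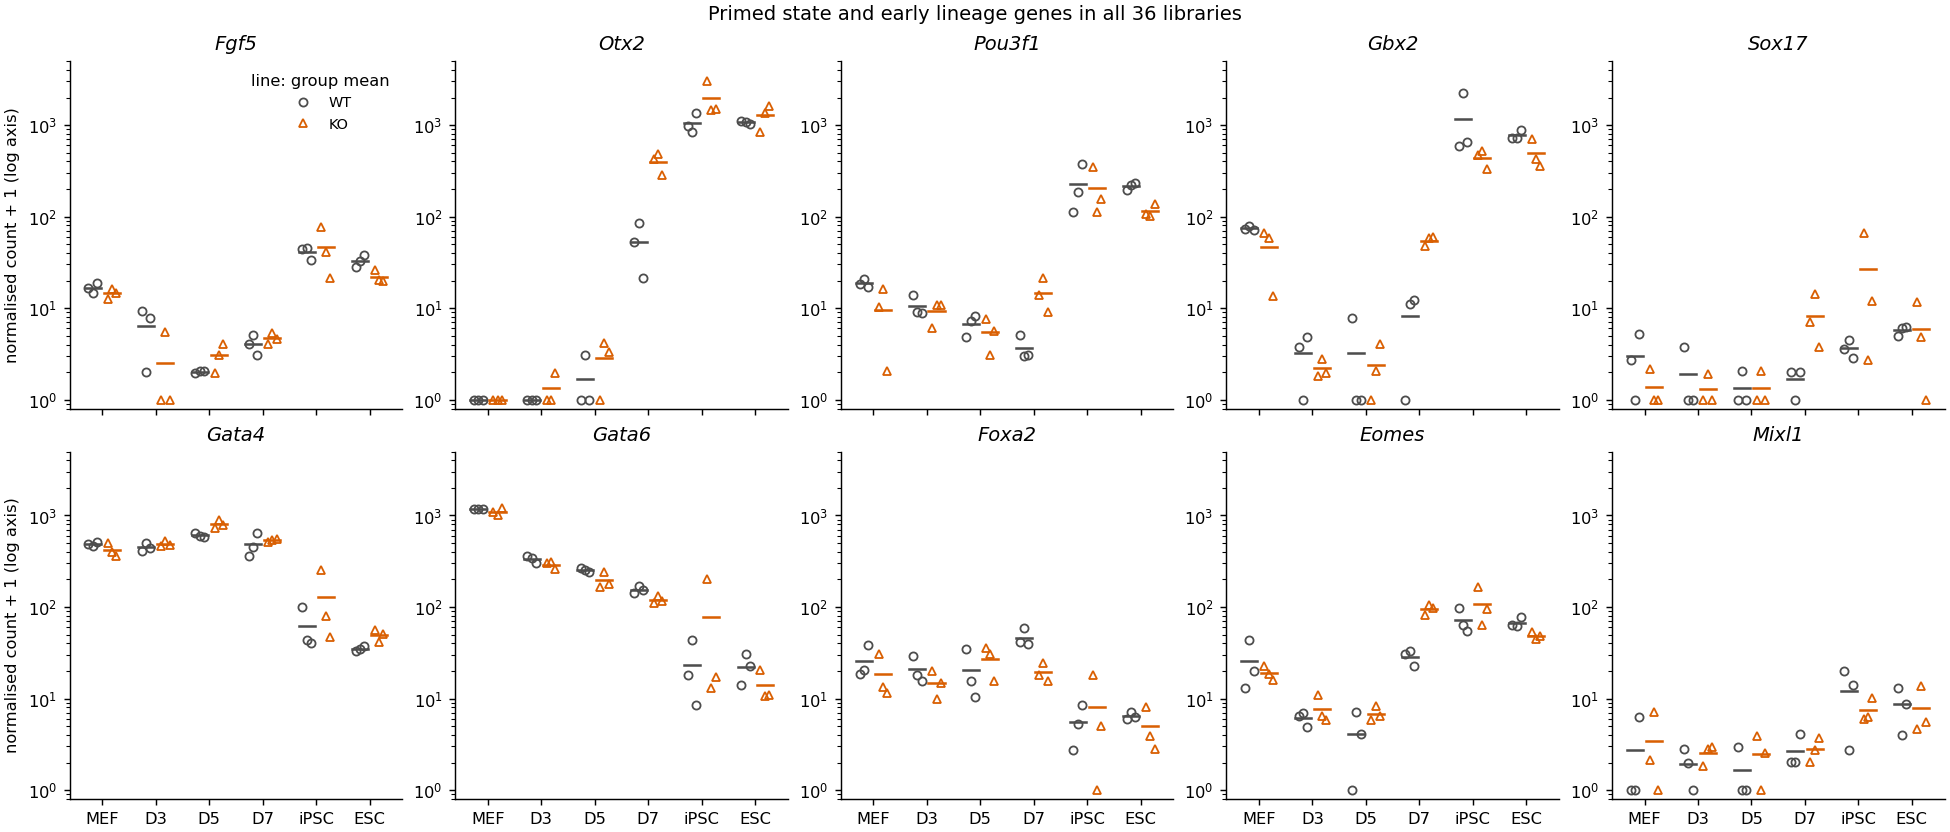
Normalized counts plus 1 of the 10 genes in all 36 libraries on a log axis, by stage, with WT libraries as circles, KO libraries as triangles and a line at each group mean. Otx2, Gbx2, Pou3f1 and Eomes separate by genotype at D7, and a single KO iPSC clone lies far above the others for Sox17 (64.9) and Gata6 (204).

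In MEFs, D3 and D5 the KO left these genes without a call. None of the 10 passed FDR < 0.05 in MEFs, against 0.0428% of all genes, none at D3, against 0.493%, and none at D5, against 7.15%. Only 6 of the 10 had an FDR at D3 and 8 at D5, so the rest could not be called there. An unadjusted p under 0.05 was reached by 0, 1 and 0 genes at these stages with DESeq2 and by 0, 1 and 0 with edgeR. The gene at D3 was Fgf5 (8.25, 1.00 and 6.78 in WT, 0, 4.48 and 0 in KO), which had no FDR with DESeq2. In MEFs, Gbx2 had 65.5, 57.0 and 12.7 and Pou3f1 9.19, 15.3 and 1.06 in KO libraries, all below WT, and for both genes KO replicate 3, the library that stood apart as a whole, was far below the other replicates. The log2FC was -0.71 for Gbx2 and -1.04 for Pou3f1, and -0.27 and -0.51 without that library. The summed level of 10 neuroectoderm genes was also low in that library, at 2476 against 9634 and 9863 in KO replicates 1 and 2. The part of that library's other differences in these values was not tested. At D5 Gata4 had 639, 589 and 584 in WT and 729.6, 900.2 and 778 in KO, a log2FC of 0.41 (SE 0.33, FDR 0.570). All KO libraries were above all WT libraries, and Gata4 passed the threshold only when the D5 libraries were fitted alone (FDR 0.000950).

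At D7, 4 of the 10 genes were higher in KO cells and none was lower. They were Otx2, Gbx2 and Pou3f1, listed here for the epiblast, and the streak factor Eomes, and all 4 were DEGs (log2FC > |1|). Gbx2 had the highest level per kb of the 10 genes in WT ESCs (358) and WT iPSCs (533). Its rise is thus not by itself that of a primed gene. Of all genes tested, 13.3% were called higher at D7, 16.1% lower and 29.4% in either direction. The median log2FC of the 10 genes was 1.02, against -0.04 over all genes.

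Otx2 had 51.7, 84.6 and 20.6 normalized counts in WT and 426, 484 and 283 in KO cells at D7. Every KO library was above every WT library, with means of 52.3 ± 32.0 and 398 ± 103 (SD, n = 3), and the log2FC was 2.93 (SE 0.45, FDR 3.20e-09), a 7.60-fold difference. The KO level at D7 was still below that of every iPSC and ESC library. Gbx2 had 0, 10.1 and 11.3 in WT and 46.2, 56.9 and 58.1 in KO, a log2FC of 2.92 (SE 0.72, FDR 0.000436). Again the groups did not overlap, though the KO level only approached the 71.1 to 77.2 of WT MEFs.

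Pou3f1 had 4.06, 2.01 and 2.06 in WT, which is 2 to 4 reads a library, and 13.1, 20.1 and 8.17 in KO (log2FC 2.35, SE 0.70, FDR 0.00432). Eomes had 29.4, 32.2 and 21.6 in WT and 80.3, 105 and 96.2 in KO (log2FC 1.76, SE 0.36, FDR 1.55e-05). Neither gene's groups overlapped, and the KO level of Eomes at D7 was within the 53.8 to 96.7 of WT iPSCs or above it. The calls of all 4 genes held under each of the 14 alternative fits, which include the replicate block and the omission of each D7 library, with a highest FDR of 2.98e-06 for Otx2, 0.00512 for Gbx2, 0.0437 for Pou3f1 and 0.000899 for Eomes.

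None of the endoderm genes was called at D7. Foxa2 had 40.6, 57.4 and 38.1 in WT and 17.1, 23.6 and 14.5 in KO at D7, with all KO libraries lower (log2FC -1.30, SE 0.59, FDR 0.0829). It passed the threshold only when the D7 libraries were fitted alone (FDR 0.00986) or when iPSC KO replicate 1 was left out of the fit (FDR 0.0372). Gata6 had 141, 168 and 153 in WT and 108, 129.6 and 114 in KO, also without overlap, but its log2FC of -0.39 (SE 0.59, FDR 0.686) was smaller than its error. That error comes from a spread estimated over all 12 groups. The lowest FDR for Gata6 among 14 alternative fits was 0.107, in the fit of 35 libraries without iPSC KO replicate 1. Sox17 had 1.01, 0 and 1.03 in WT and 6.02, 13.1 and 2.72 in KO (log2FC 3.43, SE 1.55, FDR 0.0826), a difference that rests on 2 WT reads. Gata4 (0.15), Fgf5 (0.28) and Mixl1 (0.12) had log2FC values within their errors, so Fgf5, unlike the other 3 epiblast genes, had no call at D7.

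The further genes of these pathways were counted in lists. Of 14 further primed or formative epiblast genes in the table, 8 were higher in KO at D7 and 2 lower (median log2FC 1.20), among them Nodal (2.21, FDR 7.74e-29), the ligand that maintains the epiblast, and Dnmt3b (1.86, FDR 1.15e-12), the de novo DNA methyltransferase. Utf1 (2.0, FDR 3.61e-13) and Tcf15 (2.14, FDR 2.05e-10) were also in this group. All 15 naive and general pluripotency genes were higher (median 1.56), with the lowest FDR for Klf5 (1.37, FDR 2.03e-36) and Zfp42 (1.71, FDR 5.63e-24). Of 10 further streak and mesoderm genes 3 were higher, the T-box gene T (Brachyury, 2.14, FDR 0.00722), Evx1 (1.44, FDR 0.00324) and Cdx1 (2.91, FDR 0.00496). The further endoderm list had 1 of 11 higher (Hhex, 1.85, FDR 9.55e-08), and the trophoblast list 1 of 6 higher (Elf5) and 2 lower (Gata2 and Ascl2).

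Fibroblast genes moved the other way at D7, with 7 of 13 lower in KO (median log2FC -0.72) and none higher. Their summed level was 39688 to 49106 in WT and 13168 to 27394 in KO libraries, and the sum of the 5 pluripotency genes was 4401 to 6853 in WT and 14898 to 18326 in KO. The 2 sums did not overlap between genotypes and moved in opposite directions. How much of the difference in Otx2, Gbx2, Pou3f1 and Eomes comes with this shift of the population was not tested. At D5, 12 of the 15 naive and general pluripotency genes were already higher in KO (median log2FC 1.41), and 2 of 13 fibroblast genes were lower. The sum of the 5 pluripotency genes at D5 was 1085 to 1278 in WT and 2401 to 3504 in KO. Of the 14 further primed genes 1 was higher and 1 lower at D5.

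Promoter sequences are shown for Otx2, Gbx2 and Eomes, because these genes rose together at D7 and the cassette expresses factors with known DNA motifs. RefSeq windows were found for 5 of the 10 genes (Fgf5, Otx2, Gbx2, Foxa2 and Eomes). The windows are the 250 bases before the annotated start, from GRCm38.p6 and printed 5′ to 3′ on the strand of the gene, with capitals for a motif. They lie at chr14:48667645-48667894 (minus strand) for the most upstream of 4 RefSeq starts of Otx2, chr1:89931177-89931426 (minus strand) for Gbx2 and chr9:118477939-118478188 (plus strand) for Eomes.
Otx2: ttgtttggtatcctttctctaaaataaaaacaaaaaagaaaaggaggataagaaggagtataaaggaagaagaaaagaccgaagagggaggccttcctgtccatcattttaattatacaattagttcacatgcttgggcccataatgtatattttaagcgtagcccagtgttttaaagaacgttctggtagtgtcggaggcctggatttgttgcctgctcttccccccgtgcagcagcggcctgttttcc
Gbx2: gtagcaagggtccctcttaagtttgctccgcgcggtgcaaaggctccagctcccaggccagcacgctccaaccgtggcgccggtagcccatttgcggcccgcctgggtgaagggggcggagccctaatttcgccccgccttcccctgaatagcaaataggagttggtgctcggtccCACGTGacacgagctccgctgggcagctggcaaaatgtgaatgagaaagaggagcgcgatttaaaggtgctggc
Eomes: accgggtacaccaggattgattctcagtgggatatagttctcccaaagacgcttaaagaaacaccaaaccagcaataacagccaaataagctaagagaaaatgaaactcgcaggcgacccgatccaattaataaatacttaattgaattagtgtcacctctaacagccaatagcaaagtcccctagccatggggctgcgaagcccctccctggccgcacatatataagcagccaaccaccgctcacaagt

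The motifs searched on both strands were the octamer ATGCAAAT, the Sox motif CATTGTT, the Klf motif CACACCC and the E-box CACGTG, with no overlap between motifs in the windows shown. Gbx2 had 1 match, an E-box that starts 74 bases before its start site (offset -74), and the other windows shown had none, nor did the other 3 windows of Otx2 or those of Foxa2. These other 3 windows of Otx2 hold 136, 250 and 138 bases of its own exons. By GENCODE, Otx2 begins further upstream, at chr14:48673819, and the bases before that position were not searched. The window of Fgf5, the epiblast gene without a call at D7, had a Klf motif (offset -81). Among 27025 genes with a window, 6.86% had the E-box, 7.90% the Klf motif, 3.78% the Sox motif and 1.81% the octamer. The window of Gbx2 was rich in G and C (61.6%, with 18 CpG) and those of Otx2 (42.0%, 6 CpG) and Eomes (46.4%) were not, against a median of 52.4% and 6 CpG over all windows. A match is a stretch of letters and was not tested as a binding site.

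In KO iPSCs, 3 of the 10 genes were called higher, the endoderm factors Gata4, Gata6 and Sox17, and none lower. Of all genes tested, 9.72% were called higher, 6.63% lower and 16.3% in either direction. The median log2FC was 0.61 over the 10 genes and 0.02 over all genes. No epiblast or streak gene of the 10 was called, and the 3 calls rest on 1 of the 3 KO clones.

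Gata6 had 17.3, 42.2 and 7.42 normalized counts in WT iPSC clones and 204, 12.2 and 16.2 in KO clones (log2FC 1.79, SE 0.61, FDR 0.0265). Gata4 had 98.4, 43.1 and 39.9 in WT and 255, 78.1 and 45.5 in KO (1.06, SE 0.35, FDR 0.0206). Sox17 had 2.59, 3.44 and 1.86 in WT and 64.9, 1.74 and 11.1 in KO (3.30, SE 1.24, FDR 0.0492). For each gene KO replicate 1 was the highest of the 6 libraries, while KO replicates 2 and 3 lay within the WT range for Gata4 and Gata6. Without KO replicate 1 none of the 10 genes was called, where 1874 of 20191 genes still were. The log2FC of Gata4 was then 0.04 (FDR 0.975), that of Gata6 -0.68 (FDR 0.244), and that of Sox17 1.27 (SE 1.31, no FDR).

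The calls were also sensitive to other libraries and to the fit. Without WT replicate 1 only Gata4 was called, without WT replicate 2 only Gata6, and without WT replicate 3 none, and Sox17 missed the threshold without KO replicate 3 (FDR 0.0509). When the 6 iPSC libraries were fitted alone none was called (FDR 0.431 for Gata4, 0.593 for Gata6 and 0.0904 for Sox17). Gata4 missed the threshold with edgeR (FDR 0.0516), which called Gata6, Sox17, Otx2 and Gbx2. With the replicate number as a block within each stage Gata6 fell to 1.02 (FDR 0.275) and the calls were Gata4 and Otx2, though same-numbered iPSC clones did not all deviate together. Of the 10 genes, 5 had an unadjusted p under 0.05 in the fit of all libraries against 3 in the fit of the iPSC libraries alone.

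**Figure D2:**
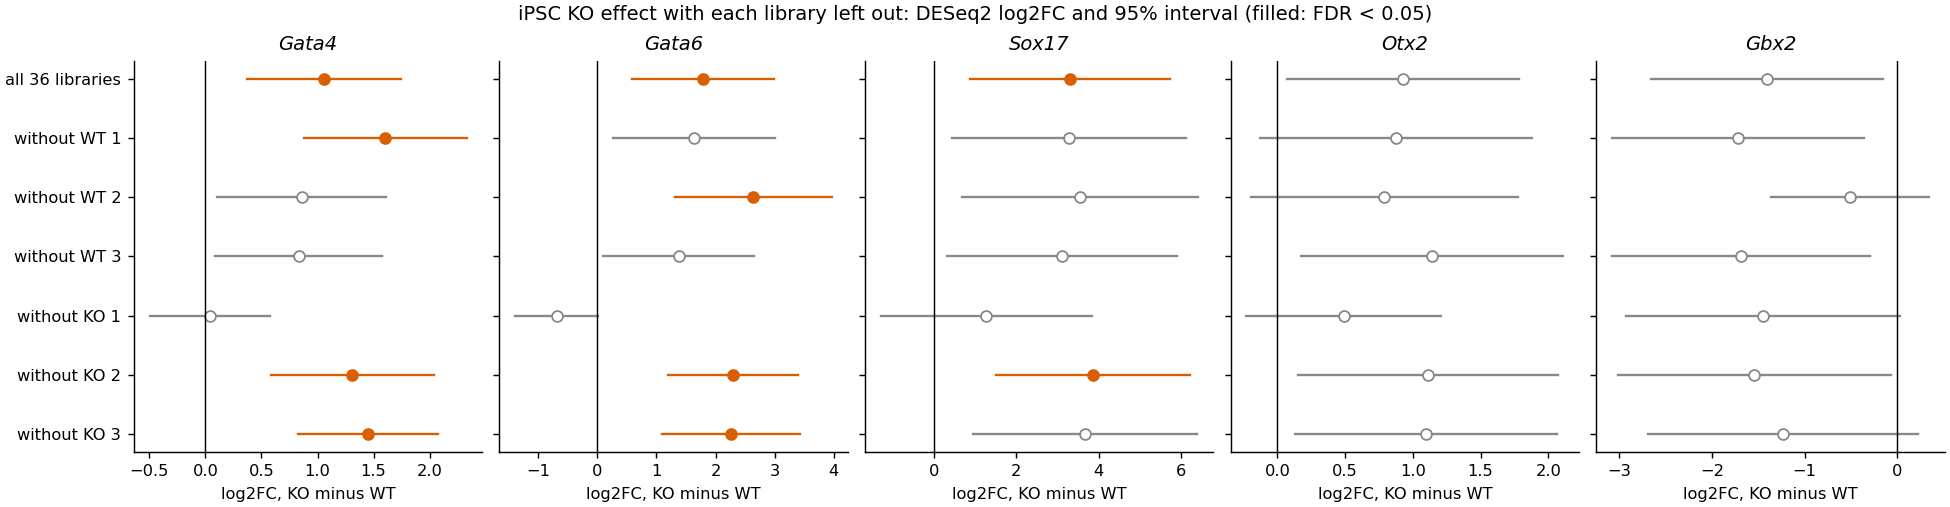
KO minus WT log2FC in iPSCs with its 95% interval for Gata4, Gata6, Sox17, Otx2 and Gbx2, in the fit of all libraries and with each of the 6 iPSC libraries left out in turn, filled where FDR < 0.05. Leaving out KO replicate 1 takes Gata4 from 1.06 to 0.04 and Gata6 from 1.79 to -0.68.

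The clone of KO replicate 1 was picked out here after its values were seen. It was the highest of the 6 iPSC libraries for 7 of the 10 genes (Fgf5, Otx2, Sox17, Gata4, Gata6, Foxa2 and Eomes), whereas over all 18866 genes that reach 10 normalized counts in an iPSC library it was the highest for 22.9%. The other KO clones were the highest for none of the 10. Of the 14 further primed genes the clone was the highest for 7 and the lowest for none, and their summed level was 30364 in it and 19694 to 26162 in the other 5 iPSC libraries. Against the mean of the other 5 iPSC libraries it had 15.6 times the level of Sox17, 10.7 times that of Gata6, 4.85 times that of Foxa2 and 4.17 times that of Gata4, but 0.538 times that of Gbx2.

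Further endoderm genes were divided in the same library. Of the 10 that reached 10 normalized counts in an iPSC library it was the highest for 5 and the lowest for 2 (Foxa1 and Cxcr4, named after their values were seen), where over all genes it was the highest for 22.9% and the lowest for 18.2%. Cubn and Amn, which encode the receptor complex of the absorptive visceral endoderm, had 7.77, 19.8 and 7.42 and 6.05, 5.17 and 7.42 in WT clones, and 1035, 31.2 and 7.07 and 155, 22.6 and 10.1 in KO clones. Dab2, the adaptor of that uptake pathway, had 38.9, 33.6 and 63.1 in WT and 649, 46.0 and 69.7 in KO. In all of them KO replicate 1 was far above the rest, and for Cubn and Dab2 the other KO clones overlapped the WT clones, as for Gata6. For Amn they lay above every WT clone. Hnf4a, a nuclear receptor of visceral endoderm, had 33.7, 4.31 and 5.57 in WT and 217, 228 and 82.8 in KO, so that all KO clones lay above all WT clones and replicate 2 was the highest.

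Among 11 further endoderm genes 4 were called higher in KO iPSCs (Cubn 4.94, FDR 3.07e-06, Hnf4a 3.60, FDR 2.30e-06, Amn 3.33, FDR 4.67e-07, and Dab2 2.50, FDR 8.15e-05) and none lower, with a median log2FC of 1.28. Their summed level was 463 to 1076 in WT clones and 3047, 795 and 1449 in KO replicates 1 to 3. Without KO replicate 1 the calls left were Hnf4a (3.42, FDR 0.000242) and Amn (1.43, FDR 0.0171), and the median was 0.35. Of the 15 naive and general pluripotency genes this clone was the highest for 3 and the lowest for 4 (Esrrb, Zfp42, Sall4 and Klf2, also named after their values were seen), and their summed level was 120422 in it and 115407 to 130555 in the other iPSC libraries. Nanog had 4853, 5619 and 6216 in WT and 7067, 7142 and 6757 in KO, Esrrb 17692, 17723 and 17886 in WT and 15827, 18583 and 16549 in KO, and Klf2 11251, 7532 and 7967 in WT and 4379, 8787 and 6521 in KO. The fibroblast sum was 942 in KO replicate 1, 878 and 609 in the other KO clones and 582 to 784 in WT clones, with 1 of 13 genes called higher (Col1a2). Whether the clone held some endoderm cells or expressed these genes throughout was not tested.

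**Figure D3:**
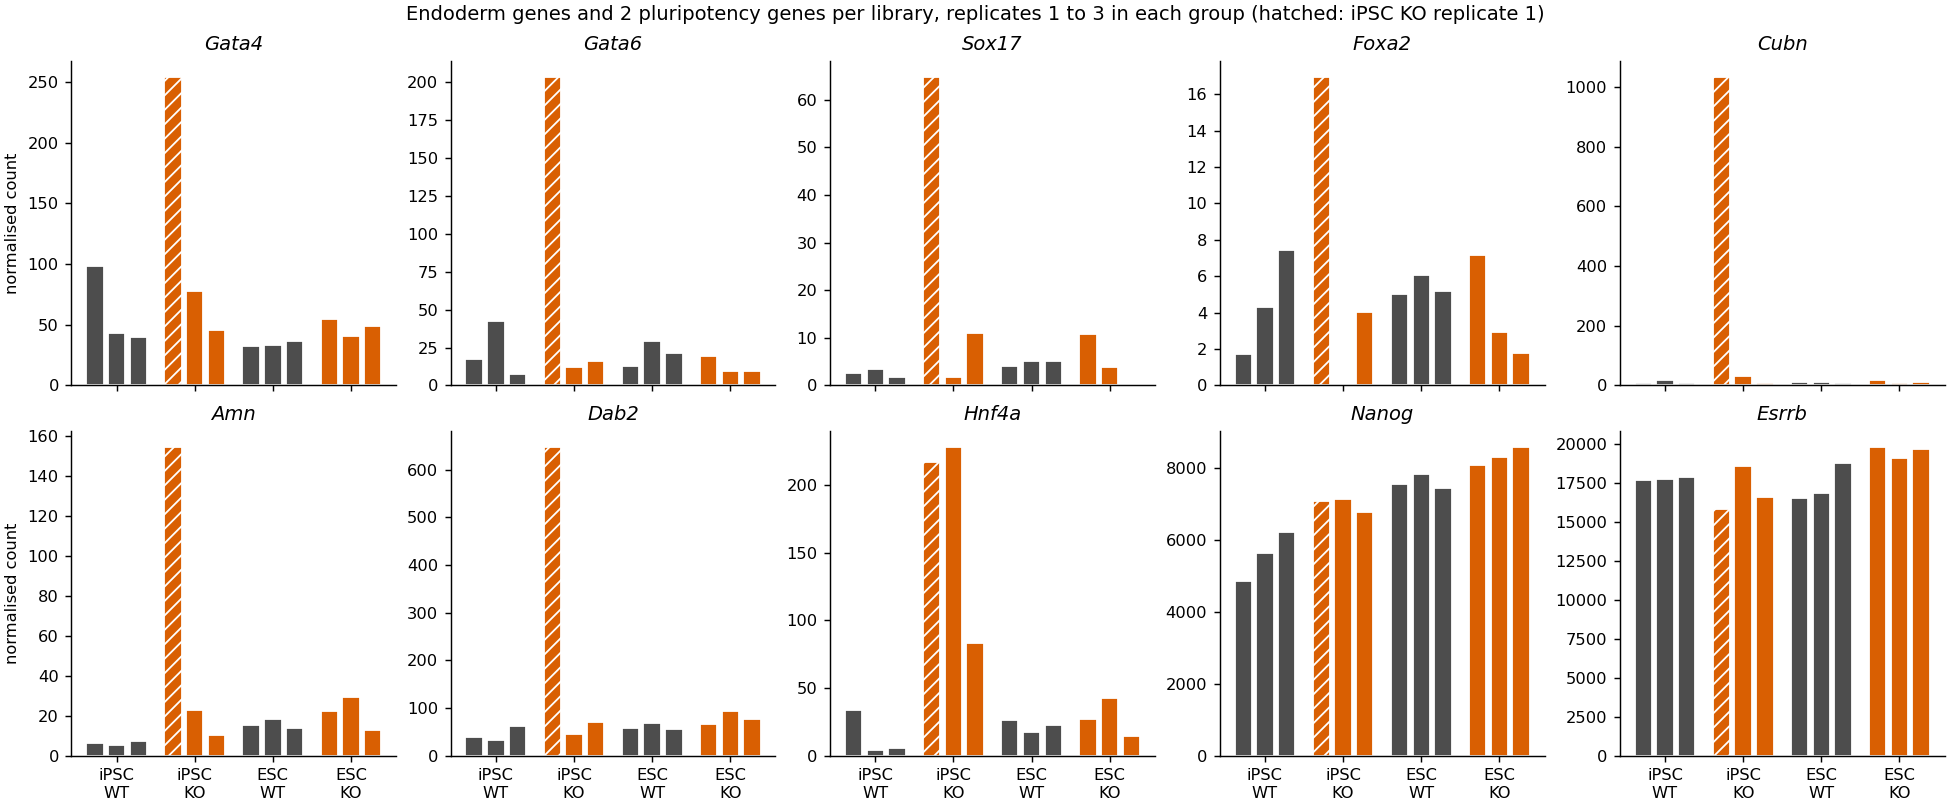
Normalized counts of Gata4, Gata6, Sox17, Foxa2, further endoderm genes (Cubn, Amn, Dab2 and Hnf4a) and the pluripotency genes Nanog and Esrrb in each iPSC and ESC library, as bars from 0, with iPSC KO replicate 1 hatched. That library has 1035 normalized counts of Cubn where the other iPSC libraries have at most 31.2, while its Nanog (7067) lies between those of the other KO clones and its Esrrb (15827) is the lowest of the 6 iPSC libraries.

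The epiblast genes in iPSCs had other patterns. Otx2 had 969, 839.6 and 1339 in WT and 3037, 1450.5 and 1495 in KO clones, and Gbx2 had 593, 2231 and 658 in WT and 466, 518 and 329 in KO. Neither gene's groups overlapped, Otx2 being higher in all KO clones (log2FC 0.93, SE 0.44, FDR 0.135) and Gbx2 lower (-1.41, SE 0.64, FDR 0.120). The share of all genes with such a separation in iPSCs is not given here, so it is a description only. Both genes passed the threshold with edgeR (FDR 0.0442 and 0.0162), and Otx2 also with DESeq2 and the block within each stage (0.86, FDR 0.0289). Single libraries carried much of each value: without KO replicate 1 the log2FC of Otx2 was 0.49 (FDR 0.471), and without WT replicate 2 that of Gbx2 was -0.51 (FDR 0.536).

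Fgf5 had 43.2, 43.9 and 32.5 in WT and 75.9, 39.9 and 20.2 in KO clones, and Pou3f1 had 112, 186 and 375 in WT and 347, 112 and 156 in KO. Both overlapped between genotypes (log2FC 0.18, FDR 0.838, and -0.13, FDR 0.902). Eomes had 96.7, 62.0 and 53.8 in WT and 165, 63.4 and 93.9 in KO (0.60, SE 0.34, FDR 0.239), and Foxa2 (0.63, FDR 0.636) and Mixl1 (-0.81, FDR 0.634) were within their errors. The 95% interval of the log2FC was -0.63 to 1.00 for Fgf5 and -0.98 to 0.72 for Pou3f1, and differences within these bounds are inside the error.

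Of the 14 further primed genes, 2 were higher in KO iPSCs, the zinc finger genes Zic2 (1.21, FDR 5.89e-06) and Zic5 (0.61, FDR 0.00625), and 2 were lower, Cdh2 (-1.02, FDR 5.88e-05) and Tcf15 (-0.91, FDR 0.0141), with a median of -0.18. Zic2 had 557, 302 and 469 in WT clones and 1281, 943 and 840.5 in KO clones, a difference that all KO clones shared. The naive list had 2 of 15 higher (Tbx3 and Dppa3, median 0.08), the streak list 0 of 10, the neuroectoderm list 1 of 10 lower (En2) and the trophoblast list 2 of 6 higher (Ascl2 and Hand1).

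In ESCs none of the 10 genes was called, where 10.1% of all genes were. Of the 6 with an FDR, 1 had an unadjusted p under 0.05 (Pou3f1), edgeR called none, and the median log2FC was -0.46 against 0 over all genes. Pou3f1 had 193, 221 and 229 in WT and 106, 101 and 135 in KO clones, a log2FC of -0.91 (SE 0.43, FDR 0.178). Every KO clone was below every WT sample. When the ESC libraries were fitted alone, so that the spread within the other groups did not enter, the FDR was 1.20e-05. If the WT samples are of the same line, that value rests in part on a spread that is not between clones.

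Fgf5, Gbx2 and Eomes had differences of the same sign. Fgf5 had 27.1, 31.4 and 37.3 in WT and 25.1, 19.5 and 18.8 in KO (-0.60, SE 0.44, no FDR), and Gbx2 had 722, 726 and 892 in WT and 703, 421 and 359 in KO (-0.66, SE 0.64, FDR 0.582). Eomes had 62.3, 60.7 and 76.4 in WT and 53.0, 43.8 and 46.7 in KO (-0.48, SE 0.35, FDR 0.435). In all of these every KO clone was below every WT sample, though none passed the threshold. The share of all genes with such a separation in ESCs is not given here, so it is a description only. Otx2 overlapped, with 1106, 1067 and 1036 in WT and 832, 1365 and 1624 in KO.

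The endoderm genes stayed low in all KO ESC clones. Gata6 had 13.1, 29.4 and 21.7 in WT and 19.7, 9.73 and 9.87 in KO (-0.70, SE 0.65, FDR 0.558), and Sox17 had 4.02, 5.06 and 5.21 in WT and 10.8, 3.89 and 0 in KO. Gata4 had 32.1, 33.4 and 36.5 in WT and 54.8, 40.9 and 49.3 in KO, all above WT (0.51, SE 0.37, FDR 0.439). Foxa2 was at most 7.18 and Mixl1 at most 12.7 in any ESC library. None of the 11 further endoderm genes was called, and only 7 of them had an FDR. Zic2 (0.84, FDR 0.00531) and Zic5 (0.72, FDR 0.00169) were higher and Cdh2 lower (-1.30, FDR 1.99e-07), as in iPSCs, and these were the only calls among the 14 further primed genes. The streak list had 1 gene lower (Kdr, -1.79, FDR 0.0113), where only 2 of its 10 genes had an FDR. The naive list had 2 of 15 higher (Klf5 and Prdm14), and the neuroectoderm list had no call. The trophoblast list had 1 of 6 higher (Hand1) and 1 lower (Gata2), and the fibroblast list 2 of 13 higher (Col1a1 and Fbn1).

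**Figure D4:**
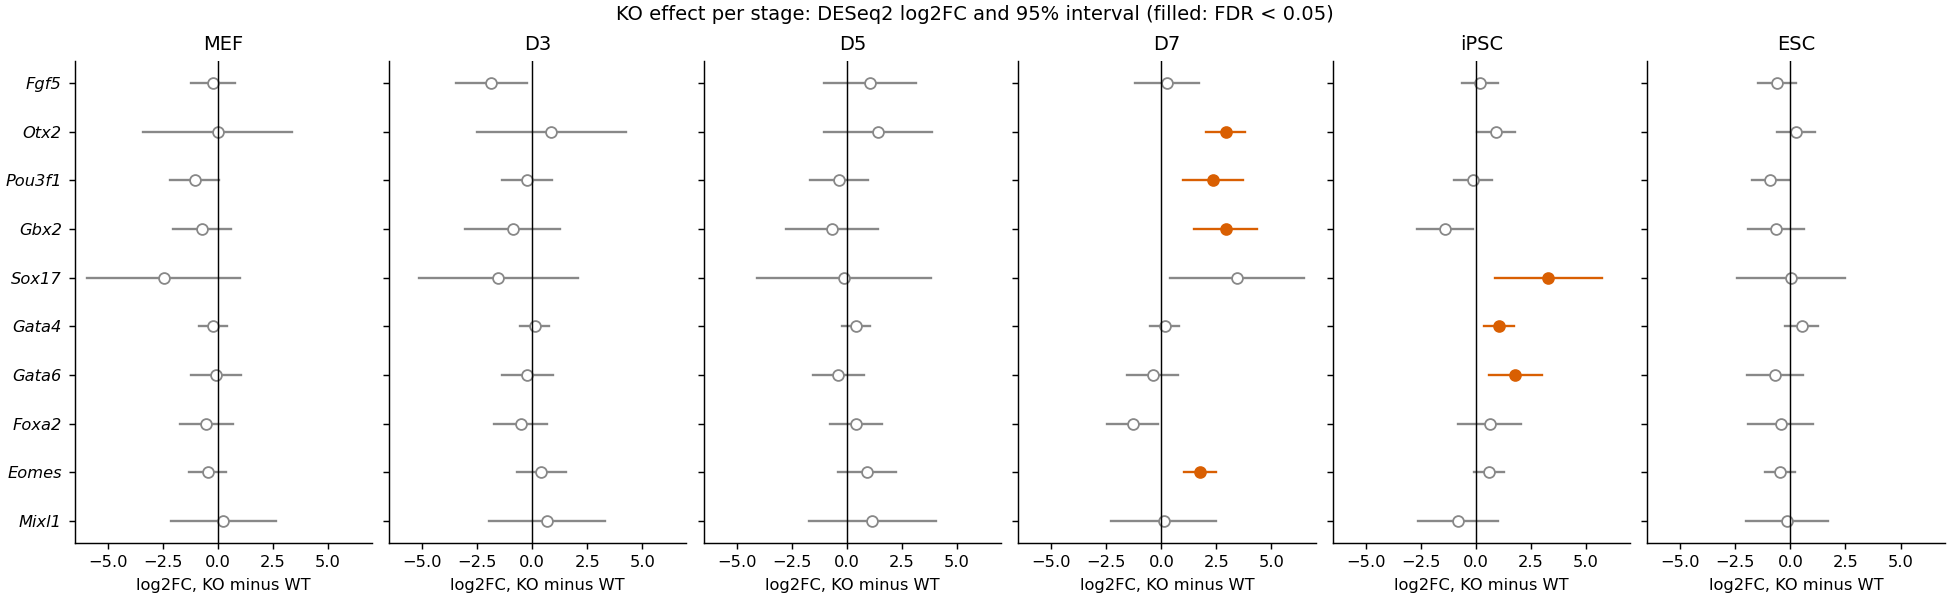
KO minus WT log2FC with 95% intervals of the 10 genes at each of the 6 stages, filled where FDR < 0.05. Otx2, Gbx2, Pou3f1 and Eomes are called at D7 (1.76 to 2.93) and Sox17, Gata4 and Gata6 in iPSCs, and no point is filled in MEFs, D3, D5 or ESCs.

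Differences between stages were tested on the KO effects themselves. Between iPSCs and ESCs the KO effect differed for none of the 6 genes with an FDR, against 1.47% of all genes. Fgf5, Sox17, Foxa2 and Mixl1 had no FDR there and could not be called. Of the 10 genes, 2 had an unadjusted p under 0.05 by DESeq2 and 3 by edgeR. Gata6 had an effect 2.49 higher in iPSCs (SE 0.89, FDR 0.141), and this difference was 0.01 (FDR 1.00) without iPSC KO replicate 1. It passed the threshold without iPSC WT replicate 2, iPSC KO replicate 2 or iPSC KO replicate 3. Between D7 and D3 the effect differed for 2 of the 8 genes with an FDR, Gbx2 (3.81, SE 1.32, FDR 0.0351) and Pou3f1 (2.58, SE 0.90, FDR 0.0367), against 13.0% of all genes. With the replicate number as a block within each stage only Gbx2 was called, and neither gene was called by edgeR or without D3 WT replicate 1, D3 KO replicate 1 or D7 KO replicate 2. Between D7 and iPSCs it differed for 4, against 21.9%: it was more positive at D7 for Gbx2 (4.32, SE 0.96, FDR 0.000139), Otx2 (2.0, SE 0.63, FDR 0.0103) and Pou3f1 (2.48, SE 0.82, FDR 0.0159), and less so for Gata6 (-2.18, SE 0.85, FDR 0.0486). Without iPSC KO replicate 1 the difference for Gata6 was 0.29 (FDR 0.687), and its call was also lost with edgeR, in the fit of the compared groups only and with either replicate block. The block within each stage added calls for Eomes (1.22, FDR 0.0409) and Gata4 (-0.72, FDR 0.0383).

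KO iPSCs were also set against KO ESCs. Gata6 (log2FC 2.55, SE 0.63, FDR 0.00300), Gata4 (1.38, SE 0.35, FDR 0.00472) and Eomes (1.16, SE 0.34, FDR 0.0187) were higher in KO iPSCs. These were 3 of the 10 genes, of which 6 had an FDR, against 6.45% of all genes called. Of these only Eomes had no overlap, with 165, 63.4 and 93.9 in KO iPSCs against 53.0, 43.8 and 46.7 in KO ESCs. Without iPSC KO replicate 1 none was called, and the log2FC values were 0.09, 0.36 and 0.71. The call for Eomes was also lost with edgeR and without ESC KO replicate 2 or 3, that for Gata6 with the block within each stage, and none of the 3 was called in the fit of these 2 groups alone.

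Genes with the most similar course were sought over the 12 group means of log2(normalized count + 1), among the 16743 genes with a group mean of 50 or more. The closest was Gm6798 for Otx2 (Pearson r 0.995), Nelfcd for Gbx2 (0.993), Gm14403 for Pou3f1 (0.987), Ppp4r4 for Fgf5 (0.981) and Acp7 for Eomes (0.972). For the endoderm genes it was Zyg11b for Gata4 (0.993), Slc41a2 for Gata6 (0.993), Slc22a23 for Foxa2 (0.951) and Pramef17 for Sox17 (0.927). With 12 points that share the contrast of fibroblasts and pluripotent cells such values are a description.

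By the GENCODE annotation all 10 are protein-coding genes, and reads over any of their exons were counted together. In GRCm38 Otx2 (ENSMUSG00000021848) spans chr14:48657677-48673819 and Gata4 (ENSMUSG00000021944) chr14:63198922-63271692, both on the minus strand, and Gbx2 (ENSMUSG00000034486) spans chr1:89927956-89931179 and Sox17 (ENSMUSG00000025902) chr1:4490931-4497354, also on the minus strand. Pou3f1 (ENSMUSG00000090125) is a single-exon gene at chr4:124656807-124660655 and Eomes (ENSMUSG00000032446) lies at chr9:118478212-118486132, both on the plus strand. For 6 of the 10 genes another gene overlaps on the opposite strand, and no source states whether reads were counted by strand. In the table were D130058E05Rik, opposite Gbx2, with at most 10.5 normalized counts at D7 and 59.2 to 183 in iPSCs and ESCs, and 1010001N08Rik, opposite Gata6, with 23.0 in iPSC KO replicate 1 and at most 4.06 in any other D7, iPSC or ESC library. Reads of each pair cannot be told apart without strand.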

How the data were processed

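RNA-seq libraries (stranded NEB Ultra II mRNA kit, 75 bp single-end reads) were processed by the authors. Adapters were trimmed (Cutadapt), sequencing runs of a sample were pooled, and reads were aligned with STAR to GRCm38 (GRCm38.p6 in the submitters' processing notes) before Rsubread counted them per gene. Tool versions, the annotation release, the strand setting and the rule that left 21442 genes are not given in the sources used here. The deposited count table holds raw counts per gene. The deposited normalised signal table holds counts divided by 1 size factor per library, and it equals the counts over the size factors computed here (largest relative difference 9.26e-15). Tables of the authors' own KO comparisons, with fold changes and p-values, were not used except for the symbols they pair with gene identifiers, and neither was their batch-corrected log matrix.

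The sample titles gave the group and the replicate number. Differential expression was tested on the raw counts by DESeq2 1.42.0 (R 4.3.3), after the methods of the study: 1 factor with 12 levels over all 36 libraries, median-ratio size factors, Wald test, independent filtering (alpha 0.1) and no shrinkage. In all, 14 comparisons were made, 3 of them differences between KO effects. FDR values are Benjamini-Hochberg over all genes tested, and genes without an FDR were not counted as called. Alternatives were edgeR 4.0.16 (quasi-likelihood test), TMM factors, at least 10 reads in 3 libraries, no independent filtering, a fit of the compared groups only, the replicate number as a block, and each library left out in turn. A block within each stage and a fit of 35 libraries without iPSC KO replicate 1 were added after the data were seen. The scripts were tested on simulated counts. Replicate pairs differed by 3.16 to 103 times the counting variance, so none was a copy.

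The 10 genes and the gene lists were chosen with earlier results of these data known. All 10 are named, and from each list at most the 4 genes with the lowest FDR among those called. Of 89 list genes 11 have no row in the table used here. For a further list the D7 result is not reported here. Positions are from GENCODE M21, which held 21390 of the genes, and promoter windows from RefSeq. Replicates with the same number deviated together at D3 (correlations 0.456, 0.101 and 0.272 over genes) and D7 (0.339, 0.172 and 0.392), less closely at D5 (0.268, 0.0897 and 0.221), and in MEFs, iPSCs and ESCs at least 1 pair had a correlation below 0.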

Additional observations from a re-analysis of the deposited data

Results flagged for a closer look

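In 6 cases the KO effect on 1 of the 10 genes differed between stages by a test of the difference itself (DESeq2 interaction contrasts). Between D7 and D3 the log2FC was higher at D7 by 3.81 for Gbx2 and by 2.58 for Pou3f1. The KO and WT means at D3 were 1.20 and 2.21 normalized counts for Gbx2 and 8.2 and 9.53 for Pou3f1, so for Gbx2 the D3 side of the contrast is at the level of single reads. Neither call held with edgeR. Leaving out D3 WT replicate 1, D3 KO replicate 1 or D7 KO replicate 2 ended both calls, and leaving out D7 WT replicates 1, 2 or 3, D3 WT replicate 3, D3 KO replicate 3 or D7 KO replicate 3 left 1 of them. With the block within each stage, which the shared deviation of same-numbered replicates at D3 and D7 calls for, 1 call was left (Gbx2).

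Between D7 and iPSCs the log2FC was higher at D7 by 4.32 for Gbx2, 2.0 for Otx2 and 2.48 for Pou3f1, and it was lower for Gata6 by a difference of -2.18. Otx2 and Gbx2 were called whichever single library was left out. Pou3f1 was not called without D7 WT replicate 2, D7 WT replicate 3, D7 KO replicate 2 or iPSC WT replicate 3. Gata6 was called without iPSC WT replicate 2, iPSC KO replicate 2 or iPSC KO replicate 3 and in none of the other fits with 1 library left out, and its difference was 0.29 without iPSC KO replicate 1. It was not called with edgeR, in the fit of the compared groups only or with either replicate block.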

How the results depend on the processing

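Of 210 counts of called genes computed under an alternative, 182 were within 1.5 times the value reported. Fitting only the groups compared gave 1 gene at D5 (Gata4), 0 in iPSCs, 1 in ESCs (Pou3f1), 0 between KO iPSCs and KO ESCs, and 1 for the difference between D7 and D3 (Gbx2). edgeR gave 0 for that difference, and the replicate block within each stage gave 1 (Gbx2). Between WT iPSCs and WT ESCs the fit of 35 libraries without iPSC KO replicate 1 gave 1 (Gata4). With 1 library left out, the count was 0 to 3 in KO against WT iPSCs, 0 to 4 between KO iPSCs and KO ESCs, 0 to 1 for iPSCs minus ESCs, 0 to 2 for D7 minus D3 and 2 to 5 for D7 minus iPSCs. It was 4 at D7 in each such fit. The log2FC of Gata6 in iPSCs ranged from -0.68 (without iPSC KO replicate 1) to 2.64 (without iPSC WT replicate 2) when 1 library was left out, against 1.79.

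The replicate number as a single block over all libraries left 2 calls in iPSCs, since the FDR of Sox17 became 0.0806, and 7 between WT ESCs and WT MEFs. It changed no call at D7. Among 826 single values of the 10 genes, KO against WT at the 6 stages, 803 kept their side of the threshold, 15 lost a call with the sign kept, 1 lost it with the sign changed and 7 gained a call, and 29 that were called in neither fit changed sign. Genes at a few reads (Mixl1, Sox17 in WT, Pou3f1 in WT at D7) are limited by depth, and the iPSC comparisons by having 3 clones a genotype. The causes of these changes were not tested.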
